A study of Mus musculus with 13 samples.

Results

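The voltage-gated sodium and calcium channel genes of the mouse were followed through 3 kinds of brain tissue. Members were the protein-coding genes of GENCODE M21 whose symbols begin with Scn and a digit or with Cacn, apart from a few that are not analysed here. They numbered 37 of the 55416 genes in the count table: 9 sodium channel alpha subunits, 3 sodium channel beta subunits, 10 calcium channel alpha1 subunits, 4 alpha2delta subunits, 4 calcium channel beta subunits and 7 gamma subunits. The low-count filter passed 17 of them, and the other 20 did not reach its level in enough libraries to be tested.

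Sodium channels open when a neuron is depolarised and carry the upstroke of the action potential. Their alpha subunit forms the pore and senses voltage, and the small beta subunits, each with an immunoglobulin fold outside the cell, set its gating and its place in the membrane. In calcium channels the alpha1 subunit forms the pore, the cytoplasmic beta subunit brings it to the surface, and alpha2delta raises the number of channels there. The gamma subunits are named after a muscle channel protein, but several of them are TARPs, partners of the AMPA type of glutamate receptor. In the brain most of these genes are known best from neurons, and some are also used by glia.

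Both tumor groups were glioblastomas raised in the motor cortex; their hosts were CNP-Cre mice, in which Cre recombinase is made under the Cnp gene of oligodendrocytes. PDGFB tumors (n = 5) came from a lentivirus with PDGFB, a growth factor, and RAS tumors (n = 5) from a lentivirus with HRasV12, an oncogenic Ras; a short hairpin RNA that targets p53 was part of both vectors. GFP-positive tissue was taken at the clinical endpoint, from 5 mice per tumor group, and labelled as tumor cells, though it was dissected tissue. Normal brain (n = 3) is labelled WT, with neither age, brain region nor number of animals given, so that region and tumor cannot be told apart. The protocol has normal tissue trimmed off the GFP-positive tumor, and whether the normal libraries are that tissue is not stated. Normal brain 3 was grouped by its tissue label, since its title begins with MBT and those of the other two with NBT. No label says which litter, day or batch a library belongs to, and p-values measure the spread between these 13 libraries. A library held 529162 to 643055 reads counted for genes (median 608897) of 13952738 to 15607754 in all, and 84.5% to 87.3% of reads fell in no gene. Levels are given as reads or as CPM, reads scaled to a common total of reads counted for genes; 1 read was worth 1.56 to 1.89 CPM. RAS tumor 2 stood apart from its group: on the first principal component of all tested genes (56.4% of the variance) it lay at −11.2, the other RAS tumors at −53.3 to −71.4, the PDGFB tumors at −10.7 to 13 and normal brain at 93.2 to 95.5.

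Whether reads were assigned by strand is not stated in the sources used here. Of the 37 channel genes, 10 have an exon that overlaps one of a gene on the other strand. Another 11 overlap a gene on the other strand with no exon bases shared, called opposite an intron below, and 16 have no annotated gene opposite. Reads counted for genes were 3.76% to 4.21% of a library, and reads counted as ambiguous between genes 0.0516% to 0.0805%. Whether a row holds reads of its gene's own strand or of the opposite strand was not tested, for any gene. The question applies to every gene, and only genes of the first kind share exon bases with a gene opposite. Shared coding stretches are printed below for Cacna1a, whose partner had more reads than the channel gene. Each runs 5′ to 3′ on the channel gene's strand (GRCm38). Cacna1a shares 2 coding stretches with the antisense gene Gm16183 (plus strand), in exon 35 of 47 (chr8:84611598-84611748) and in exon 36 (chr8:84612335-84612412). The stretch of exon 35 codes for part of the pore of the last repeat.
Cacna1a exon 35: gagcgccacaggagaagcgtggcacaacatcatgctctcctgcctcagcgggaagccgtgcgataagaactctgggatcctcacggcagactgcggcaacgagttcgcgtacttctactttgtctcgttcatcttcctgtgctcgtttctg
Cacna1a exon 36: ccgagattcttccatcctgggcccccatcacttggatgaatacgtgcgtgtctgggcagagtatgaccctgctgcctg

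RefSeq (GRCm38.p6) gave a start window for 30 of the 37 genes, 15 of them tested. As examples, windows of 3 of the genes that fell in both tumor groups are shown, all outside every annotated exon. Windows of Scn8a and of the first starts of Cacnb3 and Scn2a also lie outside every annotated exon and are not shown. Each run is the 250 bases before the start. The motifs searched, on both strands, were 4: TTCAGCACC, the core of the site of the neuronal repressor REST; CAGCTG, an E-box that reads the same on both strands; GGGCGG, the GC-box; and TATAAA. Capitals mark every match, a GGGCGG on the other strand reading CCGCCC. The windows are Scn9a at chr2:66634963-66635212 (minus strand, 54.4% G and C), the second start of Scn2a at chr2:65668436-65668685 (plus strand, 53.2%) and Cacna2d1 at chr5:15934441-15934690 (plus strand, 82.4%).
Scn9a promoter: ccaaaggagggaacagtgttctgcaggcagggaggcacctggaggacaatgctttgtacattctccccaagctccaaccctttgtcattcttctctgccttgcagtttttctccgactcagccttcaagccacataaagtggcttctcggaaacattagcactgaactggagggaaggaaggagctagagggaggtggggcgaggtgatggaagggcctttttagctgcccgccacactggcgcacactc
Scn2a promoter: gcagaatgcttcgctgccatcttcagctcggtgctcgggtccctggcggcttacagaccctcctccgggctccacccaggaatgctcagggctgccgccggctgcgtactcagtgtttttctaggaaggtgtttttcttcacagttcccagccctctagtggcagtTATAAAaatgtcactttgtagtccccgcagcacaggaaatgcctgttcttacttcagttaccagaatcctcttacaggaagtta
Cacna2d1 promoter: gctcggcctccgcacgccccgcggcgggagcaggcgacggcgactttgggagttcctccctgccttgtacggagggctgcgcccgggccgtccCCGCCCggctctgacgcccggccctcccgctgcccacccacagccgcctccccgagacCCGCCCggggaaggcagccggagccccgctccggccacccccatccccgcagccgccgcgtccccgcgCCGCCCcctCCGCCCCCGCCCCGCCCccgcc
Over the 41 windows of channel genes, TTCAGCACC was found in 0 (0.301% of all 32851 windows), CAGCTG in 26.8% (13% of all), GGGCGG in 36.6% (32.7% of all) and TATAAA in 4.88% (12.4% of all). The Scn9a window held none of the 4, Scn2a held 1 TATAAA, and Cacna2d1 held 6 GC-boxes. A match is a string of letters and not a measured site.

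The channel genes as a group stood lower in both tumor groups than in normal brain. Their summed level over all 37 genes was 765 ± 44.2 CPM (SD, n = 3) in normal brain, 243 ± 40.2 (SD, n = 5) in PDGFB tumors and 146 ± 73.2 (SD, n = 5) in RAS tumors. No tumor reached the lowest normal brain (731 CPM), while the tumor groups overlapped each other (208 to 289 and 68.4 to 248 CPM). In bulk tissue, fewer cells of a type and less RNA per cell cannot be told apart. Markers of neurons moved with the channels: of 20 marker genes, 18 were lower in PDGFB tumors and 17 in RAS tumors (25.1% and 29.3% of all tested genes were). The summed level of the 20 was 7110 to 7510 CPM in normal brain, 471 to 1060 in PDGFB tumors and 4200 to 8610 in RAS tumors, the last overlapping normal brain. Most of the RAS sum was Nefm, a neurofilament gene whose exons overlap those of Nefl on the other strand. Nefm stood at 3910 to 4360 CPM in normal brain, 154 to 345 in PDGFB tumors and 3470 to 8200 in RAS tumors. Over the 15 markers with no exon opposite, a choice made after the data were seen that leaves out Nefm and Nefl, the sum was 2430 to 2640 CPM in normal brain, 176 to 526 in PDGFB tumors and 74.7 to 589 in RAS tumors. Other cell types moved as well. Of 7 mature oligodendrocyte markers 6 were tested, 4 lower in PDGFB tumors and 5 in RAS tumors. Their summed level was 1570 to 2310 CPM in normal brain, 808 to 892 in PDGFB tumors and 596 to 916 in RAS tumors. Without Cnp, which has an exon opposite, the sum was 990 to 1590, 133 to 223 and 76.9 to 332 CPM in the same order. Of 8 astrocyte markers 7 were tested, and 3 were lower in each tumor group. Of 10 macrophage and microglia markers 7 were tested, with 2 higher and 1 lower in PDGFB tumors and 5 higher in RAS tumors. Their summed level was 354 to 400 CPM in normal brain, 325 to 427 in PDGFB tumors and 614 to 949 in RAS tumors. Without Csf1r and Cx3cr1, which have an exon opposite, it was 26.5 to 41.3, 85.4 to 144 and 301 to 524 CPM in the same order. Oligodendrocyte precursor markers were higher for 7 of 8 in PDGFB tumors and for 3 of 8, with 1 lower, in RAS tumors. Of all tested genes, 20.2% were higher in PDGFB tumors and 26.9% in RAS tumors. The 3 of 8 precursor markers in RAS tumors and the 2 of 7 macrophage and microglia markers in PDGFB tumors were not far from those shares. The part of these cell types in the channel results was not tested.

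**Figure D1:**
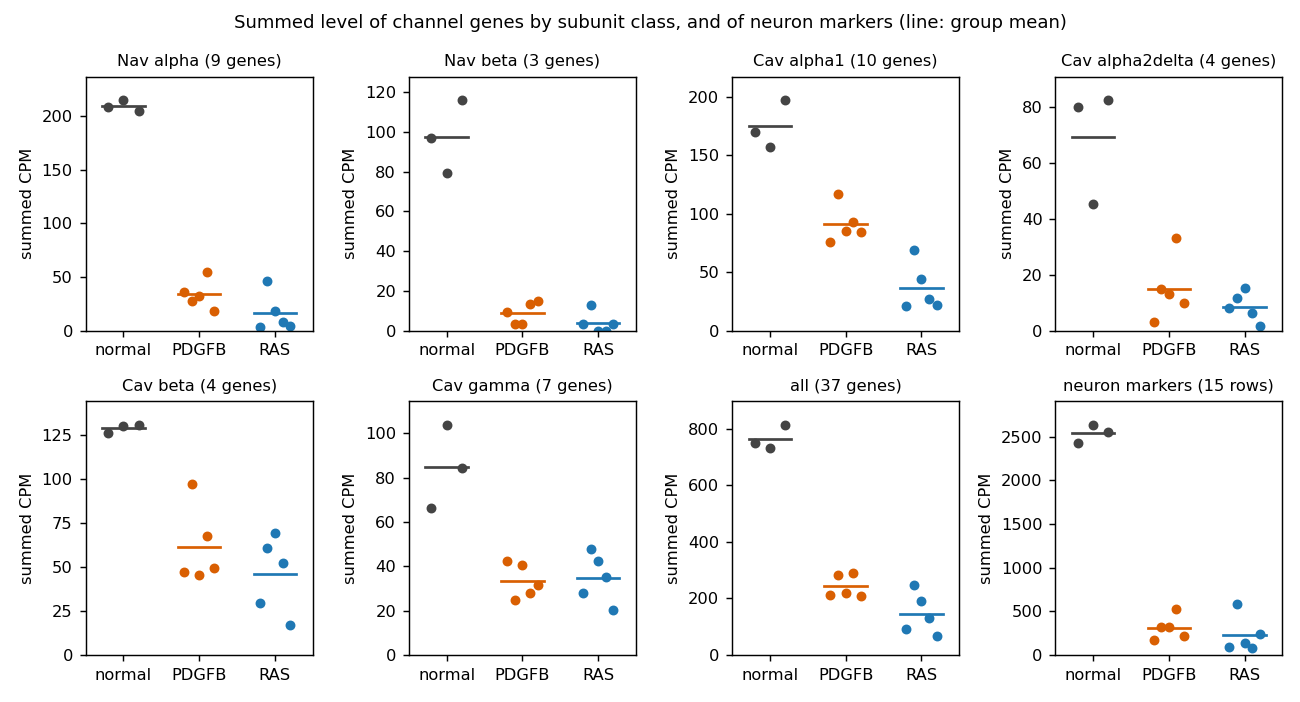
Summed CPM of the channel genes by subunit class, of all 37 together, and of 15 neuron marker genes with no exon opposite; each point is a library and each line a group mean. The 3 normal brains lie above all 10 tumors in every panel.

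By class, the 9 sodium channel alpha subunits together summed to 210 ± 5.03 CPM (SD, n = 3) in normal brain, to 33.9 ± 13.4 (SD, n = 5) in PDGFB tumors and to 16.1 ± 17.8 (SD, n = 5) in RAS tumors. The 3 beta subunits of the sodium channel were at 97.5 ± 18.3, 8.81 ± 5.43 and 3.9 ± 5.39 CPM in the same order. The alpha1 subunits of calcium channels stood at 175 ± 20.4 CPM in normal brain, 90.8 ± 15.9 in PDGFB tumors and 36.6 ± 20.3 in RAS tumors. For alpha2delta the sums were 69.3 ± 20.8 in normal brain, 14.8 ± 11.2 in PDGFB tumors and 8.58 ± 5.2 in RAS tumors. Calcium channel beta subunits stood at 129 ± 2.65, 61.4 ± 21.7 and 45.9 ± 21.9, and the gamma subunits at 84.9 ± 18.8, 33.4 ± 7.8 and 34.6 ± 11. These sums were not tested against each other.

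In the test across all genes, PDGFB tumors had 13 of the 17 tested channel genes lower than normal brain and 0 higher. Over all 7722 genes tested, 25.1% were called lower and 20.2% higher (45.3% in all). RAS tumors had 15 of 17 lower and 0 higher, where 29.3% of all genes were called lower and 26.9% higher (56.2% in all). At an unadjusted p under 0.05 edgeR also gave 0 higher in either comparison, and DESeq2 and limma-voom gave 0 higher at an adjusted p under 0.05. The CPM of all libraries lay below normal brain for 13 channel genes in PDGFB tumors (23.3% of all genes did) and for 14 in RAS tumors (26.4% of all genes). Both comparisons use the same 3 normal brains; without normal brain 3, whose title differs, 13 channel genes were lower in PDGFB tumors and 14 in RAS tumors. Of the 17 genes, 11 passed the filter only with the help of normal brain, so that a high level in normal brain helped to select them and their counts are a description. The remaining 6 reached the filter's level of 16.4 CPM in the required 3 libraries among the tumors: Cacna1a, Cacna1c, Cacna1d, Cacnb4, Cacng7 and Scn8a. In a fit of the tumors alone the filter was stricter and passed only 3 channel genes. The required number of libraries is the size of the normal brain group, so these 6 are not free of it. Of these 6, PDGFB tumors had 2 lower (Cacna1a and Scn8a), a share near that of all genes, with a median log2 fold change of −0.54. RAS tumors had 5 of the 6 lower, with a median of −1.80. For the other 11 the medians were −3.45 and −3.89, and over all tested genes −0.002 and 0.016. Between the tumor groups, PDGFB tumors had 2 channel genes higher, Cacna1c and Cacna1d, and 1 lower, Cacng3, where 14.6% of all genes were called higher and 17.4% lower (32.1% in all).

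**Figure D2:**
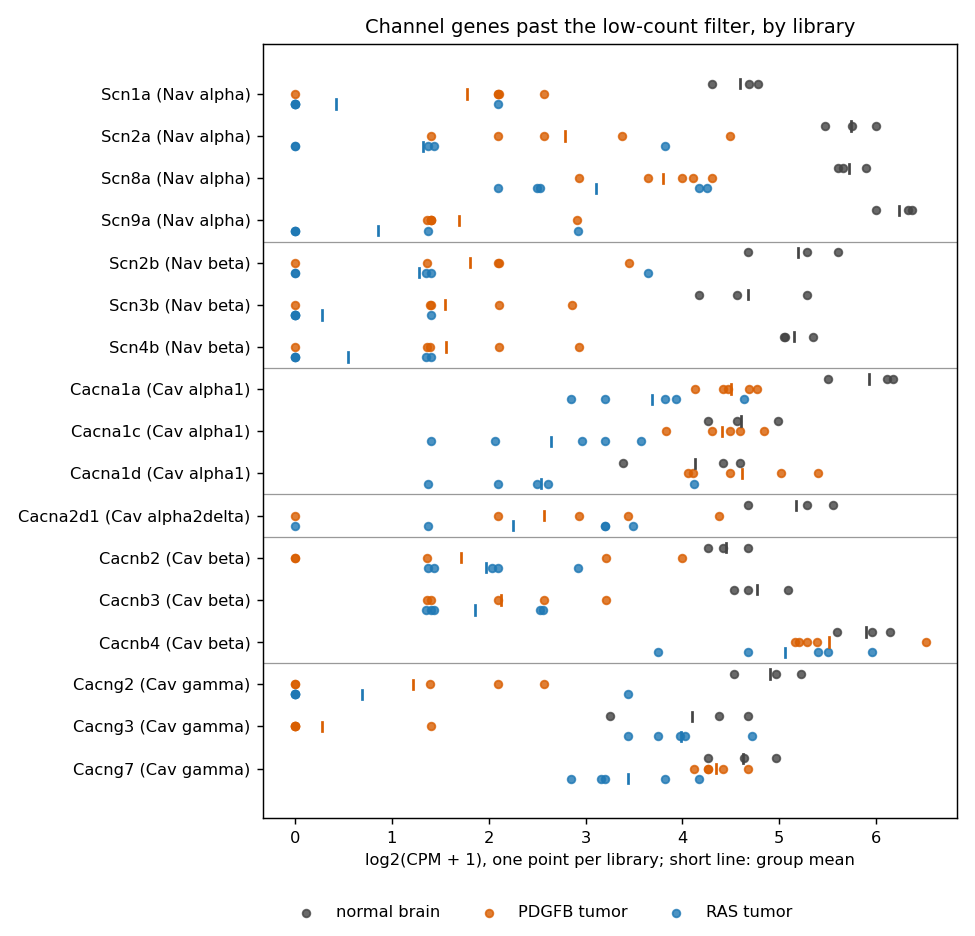
Level of each of the 17 tested channel genes as log2(CPM + 1), a point per library and a short line at each group mean, ordered by subunit class. Scn9a lies at 62.8 CPM or more in each normal brain and at 6.57 CPM or less in each tumor, while Cacng3 is at 0 in 4 of the 5 PDGFB tumors.

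Among the pore-forming sodium channel subunits, Scn9a fell furthest. It is best known as the sodium channel of pain-sensing neurons, and lies on chromosome 2 from 66480080 to 66634962 on the minus strand. Normal brains had 48, 42 and 38 reads, PDGFB tumors 1, 1, 4, 1 and 1, and RAS tumors 0, 4, 0, 1 and 0. No tumor came near a normal brain. The log2 fold change was −4.96 ± 0.53 (SE, adjusted p = 3.04e-06) in PDGFB tumors and −5.46 ± 0.57 (SE, adjusted p = 1.08e-06) in RAS tumors, or −6.93 without RAS tumor 2, which held 4 of the 5 reads of its group. Gm13629, an antisense gene opposite exons of Scn9a, had 14 reads over all libraries against 141 for Scn9a, and 0 in normal brain 1, where Scn9a had 48.

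Scn1a, Scn2a and Scn8a encode the main sodium channels of brain neurons; Scn1a is known above all from inhibitory interneurons, Scn2a from excitatory cells and Scn8a from the axon initial segment and nodes of Ranvier. Scn1a had 11, 14 and 15 reads in normal brain, 0, 2, 2, 3 and 2 in PDGFB tumors, and 0, 2, 0, 0 and 0 in RAS tumors. For Scn2a the reads were 31, 23 and 38 in normal brain, 6, 3, 2, 13 and 1 in PDGFB tumors, and 0, 8, 1, 1 and 0 in RAS tumors. Scn8a kept the most, with 28, 31 and 30 reads in normal brain, 12, 7, 10, 9 and 4 in PDGFB tumors, and 2, 11, 10, 3 and 3 in RAS tumors. In each of the 3 genes every tumor lay below every normal brain. PDGFB tumors changed by −3.13 ± 0.62 (SE) for Scn1a, −2.91 ± 0.61 for Scn2a and −2.14 ± 0.42 for Scn8a on the log2 scale, with adjusted p = 5.84e-04, 9.24e-04 and 5.17e-04. RAS tumors changed by −4.05 ± 0.69 (SE) for Scn2a and −2.53 ± 0.44 for Scn8a (adjusted p = 1.02e-04 and 1.08e-04). For Scn1a the 2 RAS reads against 40 in normal brain gave a ratio of counts of 35.8 (95% counting interval 9.28 to 306, adjusted p = 4.77e-05). Without PDGFB tumor 4 the change of Scn2a was −3.55. Without RAS tumor 2, which held both RAS reads of Scn1a and 8 of the 10 of Scn2a, the changes against normal brain were −6.88 and −5.69. With 0 reads left in a group, as for Scn1a here and for Scn3b, Cacng2 and Cacng3 below, such a fitted value hangs on the pseudocount of the fit.

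The sodium channel beta subunits Scn2b, Scn3b and Scn4b were lower in both tumor groups. Scn2b, which links to the alpha subunit by a disulfide bond, had 28, 13 and 23 reads in normal brain, 1, 2, 0, 2 and 6 in PDGFB tumors, and 1, 7, 0, 0 and 1 in RAS tumors. Every tumor was below every normal brain. Scn3b, which associates with the alpha subunit without such a bond, had 10, 12 and 23 reads in normal brain, 4, 0, 1, 2 and 1 in PDGFB tumors, and 1, 0, 0, 0 and 0 in RAS tumors. Scn4b, known for its role in resurgent current, had 19, 17 and 24, then 1, 0, 1, 4 and 2, then 0, 1, 0, 0 and 1. RAS tumors were thus nearly without reads of Scn3b and Scn4b.

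PDGFB tumors changed on the log2 scale by −3.52 ± 0.70 (SE) for Scn2b, −3.45 ± 0.61 for Scn3b and −3.86 ± 0.57 for Scn4b, with adjusted p between 4.58e-05 (Scn4b) and 5.92e-04 (Scn2b). RAS tumors changed by −3.67 ± 0.72 (SE, adjusted p = 3.38e-04) for Scn2b. For Scn3b the ratio of counts between normal brain and RAS tumors was 80.5 (95% counting interval 13.7 to 3250, adjusted p = 1.79e-05), and for Scn4b 53.7 (14.2 to 453, adjusted p = 6.14e-06). Single libraries moved some of these values: Scn2b was −4.27 in PDGFB tumors without PDGFB tumor 5 and −5.17 in RAS tumors without RAS tumor 2, and Scn3b −7.05 without RAS tumor 1. Scn2b and Scn4b lie side by side on chromosome 9, from 45117782 to 45154152 on the plus strand. The row opposite an intron of Scn2b, Gm10684, had 4 reads in normal brain, 19 in PDGFB tumors and 243 in RAS tumors.

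Between the tumor groups none of the 7 tested sodium channel genes described here passed the test, with log2 differences of 0.15 (Scn2b) to 2.28 (Scn3b, adjusted p = 0.109). For Scn3b, PDGFB tumors had 8 reads and RAS tumors 1, a ratio of counts of 8.03 (95% counting interval 1.08 to 356). Without RAS tumor 2, Scn1a (3.84, adjusted p = 0.0269) and Scn2a (2.88, adjusted p = 0.0149) passed as higher in PDGFB tumors. Over all tested channel genes, edgeR had 4 higher and 1 lower in PDGFB tumors at an unadjusted p under 0.05. The share of all genes at that threshold is not given here. At an adjusted p under 0.05 there were 2 higher and 1 lower, where 14.6% of all genes were higher and 17.4% lower.

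Of the calcium channel alpha1 subunits tested, Cacna1a, Cacna1c and Cacna1d, all 3 were lower in RAS tumors and 1 in PDGFB tumors. Cacna1a, the pore of the P/Q-type channel that triggers transmitter release, had 26, 36 and 43 reads in normal brain, 13, 16, 13, 15 and 10 in PDGFB tumors, and 5, 8, 14, 9 and 4 in RAS tumors. It changed by −1.71 ± 0.33 (SE, adjusted p = 4.29e-04) in PDGFB tumors and −2.30 ± 0.34 (SE, adjusted p = 2.87e-05) in RAS tumors, with no overlap with normal brain. The difference between the tumor groups was 0.59 ± 0.34 (SE, adjusted p = 0.189), and without RAS tumor 3 it was 0.91 (adjusted p = 0.0454). Gm16183, opposite the 2 stretches of Cacna1a shown above, had more reads than Cacna1a itself, 661 against 212 over all libraries, and 70.4 against 2.36 CPM per kb of exon. Its changes were much like those of Cacna1a, −1.74 ± 0.26 (SE, adjusted p = 4.84e-05) in PDGFB tumors and −2.22 ± 0.26 (SE, adjusted p = 3.20e-06) in RAS tumors.

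The L-type pores Cacna1c and Cacna1d, which couple depolarisation to gene expression and to pacemaking, were both higher in PDGFB than in RAS tumors. Cacna1c had 18, 12 and 11 reads in normal brain, 12, 13, 17, 8 and 14 in PDGFB tumors, and 1, 5, 4, 2 and 7 in RAS tumors. PDGFB tumors overlapped normal brain and all lay above all RAS tumors, as 11.4% of all genes did. The difference between tumor groups was 1.58 ± 0.42 (SE, adjusted p = 0.0075). Against normal brain Cacna1c changed by −2.01 ± 0.46 (SE, adjusted p = 0.00121) in RAS tumors, while in PDGFB tumors the log2 difference of −0.42 ± 0.40 (SE, adjusted p = 0.409) did not pass. The gene lies on chromosome 6 from 118587240 to 119196418 on the minus strand, and Dcp1b, opposite one of its introns, had 4 reads in normal brain, 2 in PDGFB tumors and 4 in RAS tumors.

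Cacna1d had 12, 5 and 14 reads in normal brain, 10, 25, 10, 19 and 13 in PDGFB tumors, and 2, 10, 3, 1 and 3 in RAS tumors. RAS tumor 2, with 10 reads, reached into the range of both other groups. PDGFB tumors exceeded RAS tumors by 1.85 ± 0.48 (SE, adjusted p = 0.007) on the log2 scale, and by 2.54 without RAS tumor 2. Against normal brain RAS tumors were lower, with a log2 fold change of −1.60 ± 0.56 (SE, adjusted p = 0.0219). That call ended on leaving out RAS tumor 1 or 4 (adjusted p = 0.0635 and 0.0586), and equally normal brain 1 or 3 (adjusted p = 0.0887 and 0.112), and without RAS tumor 2 the change was −2.19. In PDGFB tumors the difference from normal brain was 0.25 ± 0.49 (SE, adjusted p = 0.695). Chdh, a choline dehydrogenase gene whose exons overlap 589 bases of Cacna1d on the other strand, had 369 reads to the 127 of Cacna1d. It too was higher in PDGFB than in RAS tumors (1.25 ± 0.32 SE, adjusted p = 0.00592), and the strand of the reads of either gene was not tested.

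The other subunits of the calcium channel complex differed from gene to gene. Cacna2d1, the alpha2delta subunit to which gabapentin binds, had 27, 13 and 23 reads in normal brain, 0, 6, 2, 12 and 4 in PDGFB tumors, and 5, 5, 6, 1 and 0 in RAS tumors. It changed by −2.42 ± 0.63 (SE, adjusted p = 0.0048) in PDGFB tumors and by −2.77 ± 0.66 (SE, adjusted p = 0.00176) in RAS tumors. No tumor reached a normal brain in CPM, although PDGFB tumor 4 came within 1 read of normal brain 2. Cacnb3, a beta subunit common in neurons with no gene opposite, had 13, 13 and 20, then 1, 3, 2, 5 and 1, then 1, 3, 1, 3 and 1 reads, and changed by −2.93 ± 0.50 (SE, adjusted p = 1.72e-04) and −3.20 ± 0.52 (SE, adjusted p = 6.91e-05). Cacnb2, the main beta subunit of the heart, had 12, 13 and 11 reads in normal brain, 1, 0, 0, 9 and 5 in PDGFB tumors, and 2, 4, 1, 1 and 2 in RAS tumors. It changed by −2.72 ± 0.74 (SE, adjusted p = 0.00476) in RAS tumors and by −2.29 ± 0.70 (SE, adjusted p = 0.013) in PDGFB tumors. The second call ended without normal brain 1 (adjusted p = 0.0561) or normal brain 2 (adjusted p = 0.0726), and without PDGFB tumor 4 the change was −3.15.

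Cacnb4, the beta subunit that pairs with P/Q-type channels in the cerebellum, was the least changed of its class in reads. Normal brains had 41, 25 and 37 reads, PDGFB tumors 26, 55, 22, 23 and 21, and RAS tumors 15, 27, 36, 26 and 8, so that all 3 groups overlapped. Its log2 differences from normal brain, −0.55 ± 0.40 (SE, adjusted p = 0.272) in PDGFB tumors and −0.80 ± 0.40 (SE, adjusted p = 0.102) in RAS tumors, did not pass. The second did pass without RAS tumor 3 (adjusted p = 0.039) and by limma-voom (−0.95, adjusted p = 0.0474). A430018G15Rik, which shares 1433 bases with it on the other strand, did not follow it. That row had 496 to 704 reads in normal brain, 107 to 230 in PDGFB tumors and 8 to 179 in RAS tumors, with changes of −2.19 ± 0.62 (SE, adjusted p = 0.00778), −3.78 ± 0.65 (SE, adjusted p = 1.10e-04) and, between the tumor groups, 1.59 ± 0.58 (SE, adjusted p = 0.0455).

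**Figure D3:**
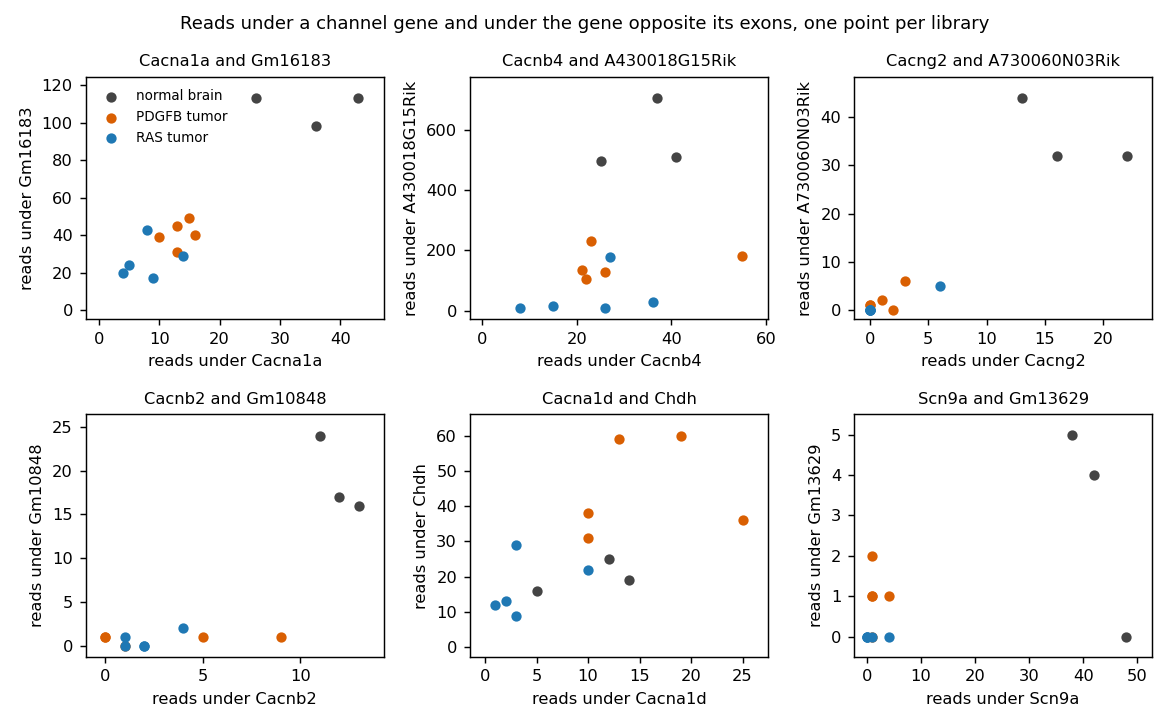
Reads under 6 channel genes (horizontal) and under the gene opposite their exons (vertical), a point per library. Normal brains stand at the upper right for Cacna1a, Cacng2 and Cacnb2, whereas for Cacnb4 the opposite row separates normal brain from all tumors and the channel row does not.

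The gamma subunits split 3 ways. Cacng2, or stargazin, which carries AMPA receptors to the synapse, had 13, 16 and 22 reads in normal brain, 0, 2, 1, 3 and 0 in PDGFB tumors, and 0, 6, 0, 0 and 0 in RAS tumors. It changed by −4.01 ± 0.81 (SE, adjusted p = 6.85e-04) in PDGFB tumors and −3.89 ± 0.81 (SE, adjusted p = 5.86e-04) in RAS tumors. All 6 RAS reads came from RAS tumor 2, and without it the fitted change was −7.22. Its opposite row A730060N03Rik was lower as well, at −4.41 ± 0.64 (SE, adjusted p = 4.38e-05) and −5.21 ± 0.71 (SE, adjusted p = 1.30e-05), and its 5 RAS reads too were all from RAS tumor 2. Cacng7, a TARP with no gene opposite, had 14, 16 and 11 reads in normal brain, 13, 10, 15, 11 and 11 in PDGFB tumors, and 5, 8, 10, 5 and 4 in RAS tumors. It was lower in RAS tumors (−1.28 ± 0.37 SE, adjusted p = 0.0071), a call that ended without normal brain 2 (adjusted p = 0.0592). In PDGFB tumors the log2 difference was −0.53 ± 0.35 (SE, adjusted p = 0.232). Between the tumor groups it was 0.76 ± 0.33 (SE, adjusted p = 0.0923), which passed without RAS tumor 3 (0.99, adjusted p = 0.0371) and under library totals (0.89, adjusted p = 0.0482).

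Cacng3 was the only tested channel gene called lower in PDGFB than in RAS tumors. This TARP lies on chromosome 7 from 122670492 to 122769393 on the plus strand. It had 5, 13 and 12 reads in normal brain, 9, 6, 9, 16 and 8 in RAS tumors, and 0, 1, 0, 0 and 0 in PDGFB tumors. RAS tumors overlapped normal brain (15.6 ± 5.93 CPM, SD, n = 5, against 17.6 ± 8.25, SD, n = 3), and the log2 difference of −0.26 ± 0.48 (SE, adjusted p = 0.667) did not pass. PDGFB tumors lay below all libraries of both other groups. With 1 read in 5 PDGFB tumors, the ratio of counts was 53.5 for normal brain over PDGFB tumors (95% counting interval 8.89 to 2180, adjusted p = 4.82e-05). For RAS over PDGFB tumors it was 47.8 (8.18 to 1930, adjusted p = 7.28e-05), and 8.88% of all genes had all PDGFB tumors below all RAS tumors. The fitted change between the tumor groups was −4.99 ± 0.73 (SE) on the log2 scale, or −6.28 without PDGFB tumor 2, which held the single read (−6.54 against normal brain); without RAS tumor 4 the gene did not pass the low-count filter. In a fit of the 10 tumors alone, Cacng3, Cacna1c and Cacna1d had too few reads to pass that filter. Of the rows on the other strand, Gm44749, opposite an intron, had 0 reads in normal brain, 0 in PDGFB tumors and 2 in RAS tumors.

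Of the 20 neuron markers, 3 were lower in PDGFB than in RAS tumors (Nefm, Nefl and Stmn2) and 2 higher (Map2 and Elavl4), shares near those of all genes (17.4% lower and 14.6% higher). Markers of oligodendrocyte precursors were higher in PDGFB than in RAS tumors for 8 of 8, and markers of macrophages and microglia lower for 6 of 7 tested. The part of these cell types in Cacng3, Cacna1c and Cacna1d was not tested.

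**Figure D4:**
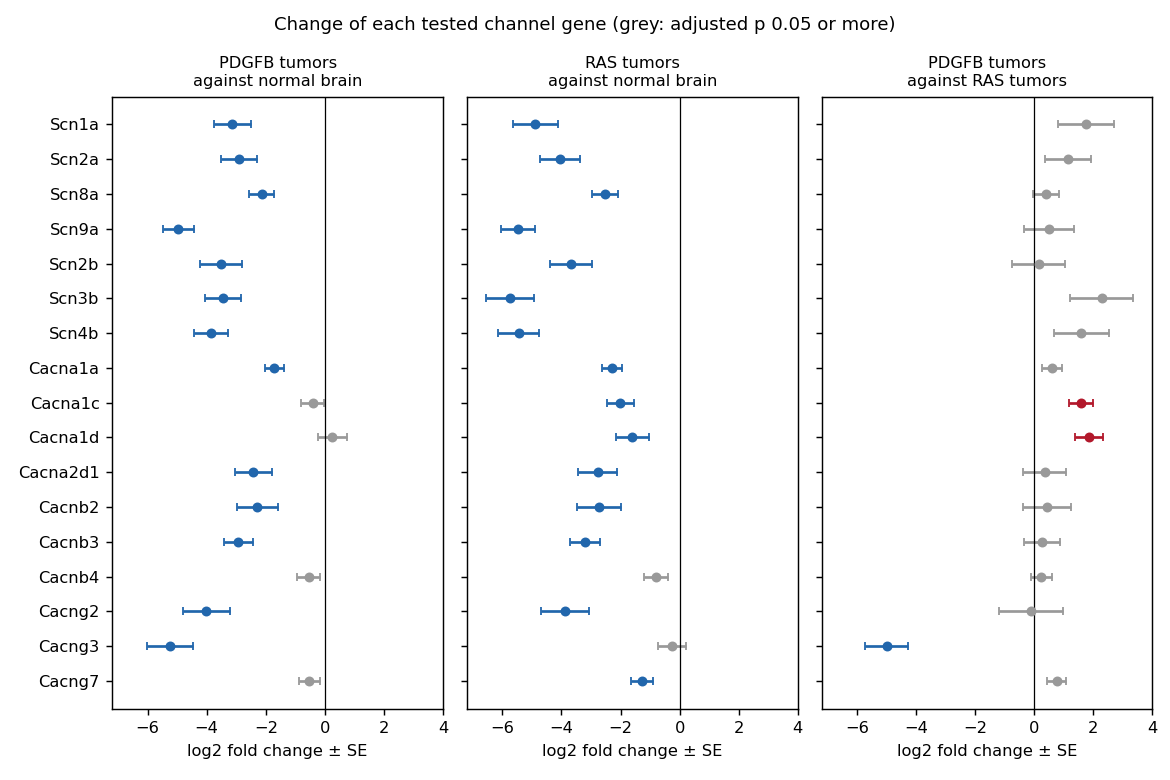
Log2 fold change with its standard error for the 17 tested channel genes in the 3 comparisons, coloured where the adjusted p was under 0.05. Blue points to the left of 0 fill the 2 comparisons with normal brain, 13 and 15 of them, and 3 genes are coloured between the tumor groups.

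In CPM per kb of exon, Cacng7 had the highest mean of the channel genes described here in normal brain, at 9.87 (7.45 to 12.4), followed by Scn2b at 7.89 (5.28 to 10.2) and Scn4b at 6.97 (6.45 to 7.96). These ranges overlapped, so their order is not settled. In PDGFB tumors Cacng7 was first at 8 (6.73 to 10), then Cacnb4 at 5.35 (3.87 to 10.1) and Cacna1d at 2 (1.24 to 3.25). In RAS tumors Cacng3 led at 5.6 (3.55 to 9.16), ahead of Cacng7 at 4.3 (2.55 to 6.96) and Cacnb4 at 4.1 (1.39 to 6.82), with overlapping ranges.

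The 20 channel genes without a test fell short of the low-count filter. Some of them had as many reads in normal brain as tested genes such as Cacnb2, which had 36. Cacna1e (R-type), Cacna1b (N-type), Cacnb1 and Cacna2d3 had 39, 31, 37 and 39 reads in the 3 normal brains, against 9, 6, 14 and 10 in the 5 PDGFB tumors and 7, 13, 9 and 7 in the 5 RAS tumors. The T-type pores Cacna1g, Cacna1h and Cacna1i had 14, 17 and 16 reads in normal brain, 16, 24 and 5 in PDGFB tumors and 2, 10 and 0 in RAS tumors. For Cacna2d2 and Cacng8 the reads were 15 and 18 in normal brain, 7 and 12 in PDGFB tumors and 2 and 7 in RAS tumors. When all genes with any read were fitted, Cacna1e, Cacna1b, Cacnb1, Cacna2d3 and Cacna1i were lower in both tumor groups, Cacna2d2, Cacna1g and Cacng8 in RAS tumors, and Cacna1g was higher in PDGFB than in RAS tumors (2.59, adjusted p = 0.0492). The 16 reads of Cacna1g in PDGFB tumors were 6, 3, 2, 3 and 2, and the 2 reads in RAS tumors were 0, 1, 0, 1 and 0.

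Channels of other tissues and of development were sparser still. Scn3a, the sodium channel of the embryonic brain, had 8 reads in normal brain, 15 in PDGFB tumors and 2 in RAS tumors. Cacng5, another TARP, had 3, 23 and 13 in the same order; in PDGFB tumors the libraries had 10, 1, 4, 2 and 6, and the groups overlapped. Scn7a had 4, 4 and 1 reads, the retinal Cacna1f 7, 4 and 2, Cacna2d4 4, 4 and 0, and the muscle pore Cacna1s 1, 6 and 0. The muscle subunits Cacng1 and Cacng6 had 1 and 2 reads in all and the sensory channel Scn11a 1, and Scn10a and the muscle channel Scn4a had 0 in all 13 libraries, which allows up to 3 reads in each group.

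Opposite rows were mostly denser than the channels themselves. There were 12 of them for the 10 channel genes, 10 had a higher CPM per kb of exon than the channel gene, and 9 had more reads. Cacnb2 has 3 such rows. Gm10849 changed by −3.61 ± 0.61 (SE, adjusted p = 1.44e-04) in PDGFB tumors and −2.54 ± 0.55 (SE, adjusted p = 8.27e-04) in RAS tumors, and Gm10848 by −4.68 ± 0.61 (SE, adjusted p = 1.44e-05) in PDGFB tumors, while Gm13269 had 0 reads. Gm17141, opposite Cacna2d2, changed by −2.67 ± 0.56 (SE, adjusted p = 8.82e-04) and −4.11 ± 0.65 (SE, adjusted p = 5.34e-05). By contrast Tpsg1, a tryptase gene opposite Cacna1h, was higher in PDGFB tumors (1.27 ± 0.44 SE, adjusted p = 0.0242). Gm37759, opposite Cacna1s, did not pass in any comparison, and Gm11629, opposite Cacnb1, had 4 reads. Among the tested channel genes with no gene opposite, 4 of 5 were lower in PDGFB tumors and 5 of 5 in RAS tumors (25.1% and 29.3% of all tested genes were). For those opposite an intron it was 5 of 6 in both, and for those opposite an exon 4 of 6 and 5 of 6. Many of these genes, Cacnb3, Scn2a and Scn4b among the first 5, passed the filter only with the help of normal brain, so the counts are a description.

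Many genes of proteins that work with these channels were lower too. The 4 lists below are to be read against the shares of all tested genes. Against normal brain these were 25.1% lower and 20.2% higher in PDGFB tumors, and 29.3% lower and 26.9% higher in RAS tumors. In PDGFB against RAS tumors, 14.6% were higher and 17.4% lower. In these lists, as among the channel genes, some passed the filter only with the help of normal brain: 3 of the 10 sodium channel partners tested, 4 of 9 calcium channel partners, 3 of 7 AMPA receptor genes and 5 of 8 genes of release channels and pumps. Without them, PDGFB tumors had 4 of 7, 4 of 5, 1 of 4 and 2 of 3 lower, and RAS tumors 5 of 7, 4 of 5, 3 of 4 and 2 of 3.

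Of 15 sodium channel partners, 10 were tested: 7 were lower and 1 higher in PDGFB tumors, and 8 lower and 0 higher in RAS tumors (also 0 higher at an unadjusted p under 0.05). The median log2 fold change of the 10 was −1.52 in PDGFB tumors and −2.04 in RAS tumors, where all genes had the medians near 0 given above. Fgf13, a cytoplasmic factor that binds the alpha subunit, changed by −3.09 ± 0.46 (SE, adjusted p = 5.22e-05) in PDGFB tumors and −4.07 ± 0.52 (SE, adjusted p = 6.41e-06) in RAS tumors. Unc80, part of the sodium leak channel complex, changed by −2.35 ± 0.54 (SE, adjusted p = 0.00186) and −3.86 ± 0.64 (SE, adjusted p = 7.41e-05). The 1 higher was Cntn1, an adhesion protein that binds sodium channel complexes and is also made by oligodendrocyte lineage cells, at 60 ± 4.99 CPM (SD, n = 3) in normal brain, against 160 ± 25 (SD, n = 5) in PDGFB tumors and 23.2 ± 20.5 (SD, n = 5) in RAS tumors. Between the tumor groups Cntn1 (2.66 ± 0.39 SE, adjusted p = 7.63e-05), Ank2 and Unc79 were higher in PDGFB tumors, and Nrcam, Nedd4l and Ank3 lower; Unc79 and these last 3 were named after their values were seen.

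Calcium channel partners were mostly lower: of 19, 9 were tested, and 8 were lower and 0 higher in either tumor group (0 higher also at an unadjusted p under 0.05), with medians of −2.73 in PDGFB tumors and −3.39 in RAS tumors. They included the active zone protein Rims1, at 53.2 ± 7.98 CPM (SD, n = 3) in normal brain, against 6.87 ± 3.02 (SD, n = 5) in PDGFB tumors and 1.35 ± 2.21 (SD, n = 5) in RAS tumors. The SNARE proteins Stx1a and Snap25, which bind presynaptic channels, changed by −4.36 ± 0.71 (SE, adjusted p = 1.15e-04) and −3.64 ± 0.72 (SE, adjusted p = 5.86e-04) in PDGFB tumors. Snap25 is also a neuron marker. Between the tumor groups Rims1 was higher in PDGFB tumors (2.09 ± 0.70 SE, adjusted p = 0.0291).

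AMPA receptors are the partners of the TARPs. Between the tumor groups 2 of their 7 tested genes, Gria2 and Shisa7, passed the test, a share near that of all genes (32.1%). Of 11 genes of receptors and auxiliaries, 7 were tested; 3 were lower in PDGFB tumors (Gria1, Cnih2 and, named after its value was seen, Dlg4) and 6 in RAS tumors, with 0 higher in either (0 also at an unadjusted p under 0.05), and the medians were −0.78 and −2.24. Gria2, the subunit that keeps the receptor closed to calcium, stood at 78 ± 8.74 CPM (SD, n = 3) in normal brain, against 74.6 ± 32.1 (SD, n = 5) in PDGFB tumors and 10.2 ± 8.9 (SD, n = 5) in RAS tumors. It was higher in PDGFB than in RAS tumors by 2.72 ± 0.45 (SE, adjusted p = 2.10e-04), in the opposite direction to Cacng3, and the auxiliary Shisa7 was higher as well (1.80 ± 0.66 SE, adjusted p = 0.0457). Gria1 was low in both, at 9.13 ± 3.61 and 10.2 ± 13.9 CPM against 77.2 ± 15.7 in normal brain.

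Calcium release channels, pumps and exchangers were lower for 7 of 8 tested genes (14 in the list) in each tumor group, with medians of −1.93 in PDGFB tumors and −2.31 in RAS tumors. The plasma membrane pump Atp2b2 changed by −4.28 ± 0.65 (SE, adjusted p = 6.00e-05) in PDGFB tumors and −3.71 ± 0.62 (SE, adjusted p = 8.60e-05) in RAS tumors. The sodium-calcium exchanger Slc8a2 stood at 30.3 ± 7.06 CPM (SD, n = 3) in normal brain, against 15 ± 5.34 (SD, n = 5) in PDGFB tumors and 3.24 ± 2.49 (SD, n = 5) in RAS tumors. Itpr3, an inositol trisphosphate receptor known from non-neuronal cells, was higher in RAS tumors than in normal brain (2.27 ± 0.79 SE, adjusted p = 0.0209) and than in PDGFB tumors (22 ± 11.4 against 1.32 ± 1.38 CPM, SD, n = 5 each), and lies opposite Itpr3os.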

How the data were processed

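Polyadenylated RNA from 13 pieces of mouse tissue was sequenced. Trizol extraction and a TruSeq RNA kit are named per the labels. Per the submitters' processing notes, fastp 0.22.0, STAR 2.7.9a and GRCm38 were used; the annotation and the strand setting of the count are not given in the sources used here. The authors deposited raw counts, whole reads per Ensembl gene, with no normalization. The aligner's summary lines stayed out of all sums. Of 55416 genes, 52135 were matched to GENCODE M21, and partners on the other strand were found by exon overlap.

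The whole table was fitted with edgeR 4.0.16 (R 4.3.3): filterByExpr (minimum count 10, total 15), TMM factors, a quasi-likelihood fit of all libraries with a coefficient for each of the 3 groups, Benjamini-Hochberg adjustment over 7722 genes and a two-sided threshold of 0.05. The procedure was tested on simulated data with the same spread set for every gene. The genes changed there had more expected reads than most channel genes, so that test does not cover genes with few reads. A ratio against a group with 1 to 3 reads has an exact 95% interval, which covers counting error only. All tested channel genes kept here are named, and of each partner list up to 2 called genes per comparison with the largest change. The members and lists were chosen with earlier results of these data known. Alternatives were median-of-ratios factors, library totals, other filters, DESeq2 1.42.0, limma-voom (limma 3.58.1), 2-group fits, a threshold of 0.01, genes with no exon opposite, each library left out and a replicate block. A few genes and sequences, left out of all counts and sums of channel genes and lists, are not reported here. The marker sums over genes with no exon opposite were added after the data were seen.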

Additional observations from a re-analysis of the deposited data

Results flagged for a closer look

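An outlier test with a nominal rate of 1 in 20 was used, a rate that does not hold for these values. Many were 0 to a few reads, and the groups share the same tumors. In 34 groups of 5 tumors, each holding the CPM of 1 channel gene, 10 had a library far from the others. RAS tumor 2 accounts for 6 of them, each time as the highest: Cacna1d at 16.4 CPM (next 5.1), Scn2a at 13.1 (next 1.7), Scn2b at 11.5 (next 1.64), Cacng2 at 9.85 (next 0), Scn9a at 6.57 (next 1.59) and Scn1a at 3.28 (next 0). This tumor also had the highest neuron marker sum of the RAS tumors over the 15 genes with no exon opposite, 589 CPM. In PDGFB tumors, Cacnb4 stood at 90.3 CPM in tumor 2 (next 40.8), Scn9a at 6.52 in tumor 3 (next 1.65) and Cacng3 at 1.64 in tumor 2, the worth of 1 read where the others had 0. Scn3b at 1.64 CPM in RAS tumor 1 was likewise a single read among zeros.

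The change from normal brain differed between the tumor groups for 3 genes, by the test of PDGFB against RAS tumors: Cacna1c by 1.58, Cacna1d by 1.85 and Cacng3 by −4.99 on the log2 scale.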

How the results depend on the processing

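The counts of channel genes lower than normal brain moved past 1.5 times only where fewer or more genes were tested: among the 10 tested genes with no exon opposite, 8 were lower in PDGFB tumors and 9 in RAS tumors, and in RAS tumors the looser filter gave 24 of 30 lower and no filter 23 of 35. With each library left out in turn, 12 to 15 were lower in PDGFB tumors and 14 to 17 in RAS tumors, with 0 higher in either. Between the tumor groups, leaving out a library gave 2 to 4 higher and 0 to 1 lower in PDGFB tumors. The fit of these 2 groups alone gave 0 higher and 0 lower, and so did the replicate block; only 3 channel genes passed the filter there, and Cacna1c, Cacna1d and Cacng3 did not. Genes with no exon opposite gave 1 higher. Same-numbered tumors did not deviate together (correlations −0.128 to 0.139, 1 of 5 over 0.1, and 1 tumor of a number nearest its own), so the block rests on a shared number alone. Library totals moved the median gene by 0.231 and 0.093 against normal brain (PDGFB, RAS) and by 0.14 between tumors.

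Of the values of single genes under the alternatives, 1054 kept direction and side of the threshold, 9 lost the call, 7 gained it and 15 turned direction, all 15 on differences that had not passed. These were, between the tumor groups, Cacng2 at 0.00 with library totals and 0.46 by limma-voom, and Cacnb2 at −0.49 by limma-voom; the rest arose with a library left out. Those values ran from −0.69 to 3.30 for Cacng2, −0.60 to 1.75 for Scn2b, −0.49 to 0.79 for Cacnb2, −0.14 to 0.51 for Cacnb3, −0.28 to 0.68 for Cacna2d1, −0.09 to 0.50 for Cacnb4 and −0.10 to 2.06 for Scn9a. Cacng3 in RAS tumors against normal brain ran from −0.55 to 0.09. The causes were not tested. At this depth a gene with 0 to 3 reads per library cannot be ranked within a group.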
